A study of Homo sapiens with 12 samples.

Results

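Translation initiation factors outside the eIF4 family were examined in RNA sequencing of U2OS cells, a human osteosarcoma line. The members were the 36 genes, of 58684 in the count file, that encode eIF3, eIF2, eIF2B, the kinases of eIF2alpha, eIF1, eIF1A, eIF5, eIF5A, eIF5B, eIF6, eIF2A and eIF2D. They were chosen by gene name alone, without use of their values. The cells stably carried either eIF4E-Flag (a tagged copy of the cap-binding factor eIF4E, called eIF4E cells here) or the vector alone (vector cells). From each kind of cell, input RNA, which was total RNA, and RNA of an immunoprecipitation directed at the cap (Cap IP) were sequenced, giving 4 groups of 3 libraries, or 12 in total. No treatment, dose or time is given. The labels do not say whether a line is 1 clone or a pool, nor whether the replicates came from separate cultures, and the p-values therefore cover the spread among these libraries, which may be technical.

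Initiation starts with a complex of eIF2, GTP and the initiator tRNA, which joins the small ribosomal subunit together with eIF1, eIF1A, eIF3 and eIF5. That assembly is brought to the capped start of an mRNA by the eIF4 factors, scans to a start codon, and is joined there by the large subunit with the help of eIF5B. eIF2B recharges eIF2 with GTP, and 4 kinases that phosphorylate eIF2alpha under stress slow this step. An m7G cap is placed on the first transcribed base of an mRNA, and the Cap IP enriches RNA that carries it.

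Libraries held 1206321 to 1813486 counts, and the 36 members together 0.209% to 0.323% of them. Counts are given below as CPM (counts per 1000000 of a library size scaled by edgeR's TMM method), and 3 counts stood for 1.19 to 3.15 CPM. A gene was called higher or lower at a Benjamini-Hochberg adjusted p under 0.05 in edgeR's quasi-likelihood test, fitted over the 12460 genes with enough counts. Of the members 34 were tested, and EIF1B and EIF5A2 were not. EIF4E itself had 4.81 to 9.70 CPM in vector input and 11.9 to 15.4 in eIF4E input, a log2 difference of 0.98 that did not pass (edgeR adjusted p = 0.231). Of 8 osteoblast markers SPARC and COL1A1 were abundant and COL1A2 held 2 counts in all, and the summed markers had 979 to 1427 CPM in vector input, 799 to 1076 in eIF4E input, 403 to 894 in vector Cap IP and 270 to 412 in eIF4E Cap IP. The 5 epithelial markers summed to 1366 to 2241, 2445 to 3982, 3047 to 4651 and 4901 to 6568 CPM in the same order, nearly all of it KRT8 and KRT18, while EPCAM and KRT19 held 49 and 5 counts. The 6 blood markers stayed at or under 8.92 CPM in sum with HBB at 0, the 4 neuronal markers at or under 40.8 and the 3 endothelial markers at or under 44.4. The part of these markers in the results below was not tested, and in bulk RNA fewer cells of a kind and less RNA per cell cannot be told apart.

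The RNA behind the counts of many members is uncertain. In GENCODE release 44, 19 of the 36 members have exons that overlap exons of a gene on the opposite strand, and 17 do not. The kit marks strand, but whether the counting used strand is not stated in any source used here. An opposite gene with a symbol and a row in the file is named beside the members that were called. Among the other members described, NANOS1 lies opposite to EIF3A over 61 bases of exon and GPS2 opposite to EIF5A over 241. Opposite to EIF3E (323 bases) and EIF2AK3 (781) lie genes without a symbol that were not matched to a row.

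The base to which the cap is added is the first one transcribed, so the sequences around the annotated start sites are shown for members whose starts begin alike and for the other called members that have a start there. RefSeq (GRCh38.p14) gave a start for 29 of the 36 members. Of these, 7 begin with C followed by 4 bases that are each C or T, the pattern at the start of terminal oligopyrimidine (TOP) mRNAs, against 1429 of all 35116 starts (4.07%). Each line runs 5′ to 3′ on the gene's strand, with the 15 bases before the start in lower case and the first 15 transcribed bases in capitals. The first 7 lines have the pyrimidine pattern and the last 8 do not.
EIF3F, plus strand of chr11:7987322-7987351: ttccgcttccgcctcCTTCTTTCTCGACAA
EIF3K, plus strand of chr19:38619173-38619202: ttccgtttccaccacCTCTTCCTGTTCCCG
EIF3M, plus strand of chr11:32583816-32583845: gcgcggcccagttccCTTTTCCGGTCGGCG
EIF3D, minus strand of chr22:36529152-36529181: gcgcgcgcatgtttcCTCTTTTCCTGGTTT
EIF2S3, plus strand of chrX:24054941-24054970: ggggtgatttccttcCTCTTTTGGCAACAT
EIF2A, plus strand of chr3:150546772-150546801: tcacccgagcggtttCTCTTTCCGGGACAA
EIF2D, minus strand of chr1:206612451-206612480: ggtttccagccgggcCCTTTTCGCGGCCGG
EIF3J, plus strand of chr15:44537132-44537161: cacctccgccgtgctAACTCCTCGCTAGCT
EIF5B, plus strand of chr2:99337374-99337403: gcgcactgagaactcACACCATATGTGTCC
EIF1AX, minus strand of chrX:20141824-20141853: gcaaagagtcgcggcGCCATTTGCTGCCGC
EIF2B2, plus strand of chr14:75002906-75002935: gacctcgcccgccccGGAAGTGCAAACTGT
EIF2B1, minus strand of chr12:123633672-123633701: gaggggtacggaagtGCGCCGGAAGTGGGG
EIF2B5, plus strand of chr3:184135343-184135372: ggtggcagcttccttGCGGAAGTGGTGACC
EIF3I, plus strand of chr1:32222392-32222421: accttttccggtcttACTCACGTTGCGGCC
EIF2AK2, minus strand of chr2:37156966-37156995: gtccaaggggaaaacGAAACTGAGAACCAG
The 7 members with the pattern had a median log2 change of 0.06 from input to Cap IP in vector cells and -0.40 in eIF4E cells. The 20 tested members with a start but without the pattern had medians of 0.01 and -0.22. These are annotated starts, 1 for each gene, and where transcription began in these cells was not measured.

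Levels of the members differed widely before any comparison of groups. Per kb of the canonical transcript, the highest in vector input were the hypusine factor EIF5A at 134 ± 55.7 CPM (SD, n = 3) and the kinase EIF2AK1 at 120 ± 33.3. Among the 13 eIF3 subunits the range was 3.60 ± 1.47 CPM per kb (EIF3M) to 72.7 ± 23.7 (EIF3B), with a median of 17.6. EIF3B was followed by EIF3G at 54.8 ± 6.68, EIF3I at 51.8 ± 10.7, EIF3K at 49.8 ± 18.7 and EIF3D at 42.1 ± 9.15, and the SDs of these 5 overlapped from each to the next. EIF3L, the next in order, stood lower at 19.9 ± 2.39. The gene opposite to EIF3M, CCDC73, held 1244 counts on average against 28.2 for EIF3M. EIF3CL, a near copy of EIF3C, was at 0, and EIF3F was scaled by a transcript of 6920 bases. The part of strand, copies and transcript length in this order was not tested. EIF2AK1 alone took 18.6% to 52.6% of the members' counts, so sums over members follow it. Without EIF2AK1 the other 35 summed to 1545 ± 233 CPM in vector input, 1798 ± 28.9 in eIF4E input, 1751 ± 152 in vector Cap IP and 1828 ± 47.8 in eIF4E Cap IP.

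**Figure D1:**
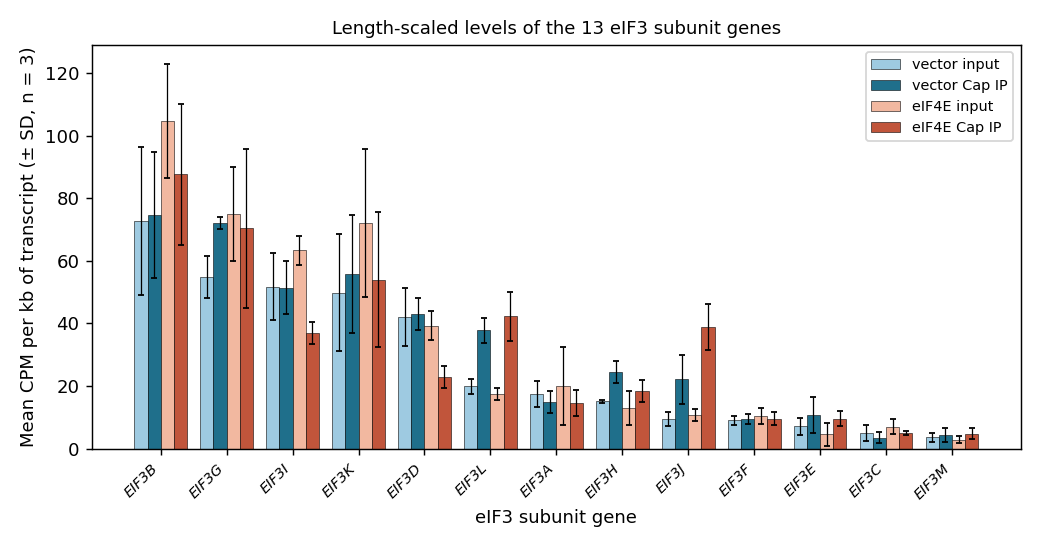
Bars give the mean CPM per kb of canonical transcript of the 13 eIF3 subunit genes (x axis, ordered by vector input), with the SD over 3 libraries, in the 4 groups. EIF3B is highest and EIF3M lowest in vector input (72.7 and 3.60), EIF3L and EIF3J stand higher in both Cap IP groups than in input, and EIF3D and EIF3I stand lowest in eIF4E Cap IP.

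The comparison of Cap IP with input asked which members' RNA the cap antibody took up relative to total RNA. In vector cells, the RNA of EIF3L and EIF3J, subunits of eIF3, and of EIF2AK1, the heme-regulated kinase of eIF2alpha, was higher in Cap IP, and that of EIF2AK2, the kinase activated by double-stranded RNA, was lower. These 4 were 11.8% of the 34 tested members, while 39.5% of all tested genes were called (18.5% higher and 21.0% lower). The members' median log2 change was 0.06, against -0.04 over all genes. In 7 members every Cap IP library lay above every input library (EIF3H, EIF3L, EIF3G, EIF3J, EIF2AK1, EIF1AX and EIF5B) and in 2 below (EIF2B2 and EIF2AK2), against 22.7% and 27.2% of all genes. With the title stem that input and Cap IP libraries share as a replicate block, 5 members were higher and 1 lower, against 23.3% and 25.5% of all genes. The added calls were EIF3H at 0.67 (edgeR adjusted p = 0.0277) and EIF5B at 0.87 (edgeR adjusted p = 0.00806).

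In eIF4E cells EIF3L, EIF3J and EIF2AK1 were higher in Cap IP too, with EIF5B, EIF2A, EIF1AX and EIF2B1. EIF3D and EIF3I of eIF3, EIF2B2 and EIF2B5 of eIF2B, and EIF2D were lower. These 12 calls were 35.3% of the tested members, against 45.1% of all genes (21.9% higher and 23.3% lower). The members' median was -0.15, against -0.13 over all genes. All 3 libraries lay above input in 5 members (EIF3L, EIF3J, EIF2AK1, EIF5B and EIF2A) and below it in 6 (EIF3D, EIF3I, EIF2B2, EIF2B5, EIF1AD and EIF2D), against 25.4% and 29.5% of all genes.

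Both counts depended on how libraries were scaled. With total counts as library sizes the median of all genes moved to -0.78 in vector cells and -0.99 in eIF4E cells, and the members called became 0 higher and 9 lower in vector cells and 2 higher and 19 lower in eIF4E cells. Of all genes 5.92% were then higher and 40.2% lower in vector cells, with 8.84% and 47.1% in eIF4E cells. The 2 members higher were EIF3J and EIF2AK1, at 0.97 each. With library sizes from the 13 mitochondrial mRNAs the medians were 0.97 and 0.03, and the calls 7 higher and 0 lower in vector cells and 0 in eIF4E cells, against 23.3% and 4.43% of all genes in vector cells, with 6.79% and 5.67% in eIF4E cells. Directions below are relative to the other genes under TMM.

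**Figure D2:**
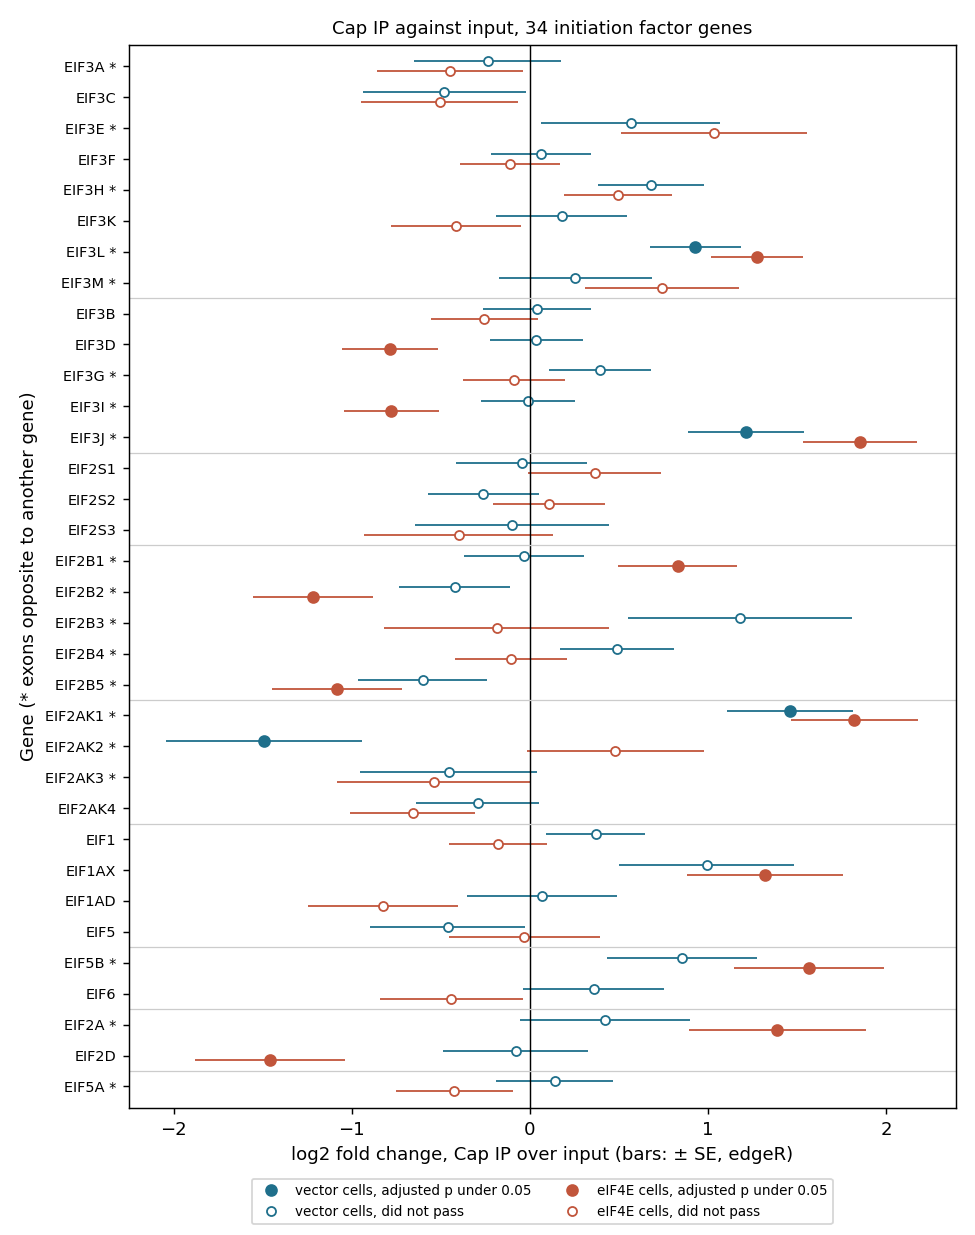
Log2 fold change of Cap IP over input (x axis, ± SE from edgeR) for the 34 tested members in vector and in eIF4E cells, grouped by role, with filled points for an adjusted p under 0.05 and a star for members with exons opposite to another gene. EIF3L, EIF3J and EIF2AK1 are filled to the right in both kinds of cell, and most members lie within 1 of 0.

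Among the 8 subunits of the eIF3 core, which holds the complex together, EIF3L was called in both kinds of cell. EIF3L (chr22:37848868-37889407) had 45.9, 58.3 and 54.8 CPM in vector input and 89.5, 110.4 and 103 in vector Cap IP. The eIF4E input libraries had 42.7, 44.97 and 52.4 CPM and the eIF4E Cap IP libraries 101, 137 and 101. All Cap IP libraries lay above all input libraries. The log2 change was 0.93 ± 0.26 (SE) in vector cells (edgeR adjusted p = 0.00747) and 1.27 ± 0.26 in eIF4E cells (edgeR adjusted p = 0.000569), and it was called without any 1 of the 6 libraries in either kind of cell. ANKRD54, an ankyrin repeat gene opposite to it over 460 bases of exon, held 24.1 counts on average against 109 for EIF3L and changed by 0.00 and 0.01.

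The other 7 core subunits were not called in Cap IP without a replicate block. EIF3H had 58.2, 62.0 and 59.9 CPM in vector input and 100.1, 108 and 81.1 in vector Cap IP, without overlap (0.68 ± 0.30, edgeR adjusted p = 0.0760, and 0.0277 with the stem as replicate block). Its eIF4E input libraries were spread from 30.1 to 73.1 CPM and overlapped eIF4E Cap IP at 63.7 to 88.2. EIF3A, the scaffold subunit, ranged from 97.3 to 149 CPM in vector input and from 74.6 to 121 in vector Cap IP. In eIF4E input replicate 3 it had 36.9 CPM against 186 and 174 in the other replicates. That library was also the lowest of its group in EIF5B, EIF2S1, EIF2S2, EIF3H and EIF3M, and the highest in EIF3B, EIF3K, EIF6 and EIF5A. Log2 changes of EIF3C, EIF3E, EIF3F, EIF3K and EIF3M in the 2 kinds of cell lay between -0.51 and 1.03. The highest was EIF3E, whose pseudogene is described below, at 1.03 ± 0.52 in eIF4E cells (edgeR adjusted p = 0.111). Its edgeR adjusted p was 0.00897 with the stem as replicate block, though stems were not taken to pair eIF4E libraries.

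Of the 5 peripheral eIF3 subunits, EIF3J was called higher in both kinds of cell. EIF3J (chr15:44537125-44563029), a loosely held subunit that acts at the mRNA channel of the small ribosomal subunit, had 18.7, 29.9 and 21.5 CPM in vector input and 65.1, 67.3 and 32.6 in vector Cap IP. The eIF4E cells had 27.3, 30.8 and 21.8 CPM in input and 105, 109 and 75.4 in Cap IP. No Cap IP library reached down to an input library, and the vector Cap IP replicate 3 was the lowest of the 6. The log2 change was 1.21 ± 0.33 in vector cells (edgeR adjusted p = 0.00605) and 1.85 ± 0.32 in eIF4E cells (edgeR adjusted p = 0.000125), and it was called without any 1 library. SPG11, the spatacsin gene opposite to it, held 40.3 counts on average against 65.2 and stood at 0.18 (edgeR adjusted p = 0.794) in vector cells and 1.15 (edgeR adjusted p = 0.0456) in eIF4E cells.

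EIF3D and EIF3I were called lower in eIF4E Cap IP. EIF3D (chr22:36510855-36529184), a subunit with cap-binding activity of its own, had no exons opposite to another gene. It had 73.5, 65.5 and 82.6 CPM in eIF4E input and 50.3, 40.6 and 37.7 in eIF4E Cap IP, without overlap, a log2 change of -0.79 ± 0.27 (edgeR adjusted p = 0.0235). In vector cells it had 70.5, 98.9 and 67.9 CPM in input and 72.9, 77.8 and 91.9 in Cap IP, overlapping groups with a change of 0.04 ± 0.26. EIF3I (chr1:32221077-32245397), a WD-repeat subunit opposite to MTMR9LP and TMEM234, fell from 87.4, 85.0 and 97.6 CPM to 57.5, 47.3 and 52.6 in eIF4E cells (-0.78 ± 0.27, edgeR adjusted p = 0.0220). Its vector libraries overlapped, at 57.3 to 87.7 CPM in input and 61.3 to 85.1 in Cap IP, with a change of -0.01. The adjusted p of EIF3D was 0.0745 without eIF4E Cap IP replicate 2, 0.0782 without replicate 3 and 0.0573 without eIF4E input replicate 3, and that of EIF3I was 0.0817 and 0.0507 without eIF4E Cap IP replicates 2 and 3. EIF3B and EIF3G, which carry RNA recognition motifs, were not called and changed by between -0.26 and 0.40.

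The 3 subunits of eIF2 moved little. EIF2S1, the subunit that the stress kinases phosphorylate, had 67.9, 50.8 and 54.8 CPM in vector input and 76.8, 55.7 and 36.4 in vector Cap IP. EIF2S2 had 64.0, 46.5 and 54.8 CPM against 54.4, 54.7 and 30.01 in the same groups. EIF2S3, which binds the initiator tRNA, was sparse, with 3.08 to 16.6 CPM over the 12 libraries. Groups overlapped for all 3 genes in both kinds of cell, and their log2 changes lay between -0.26 and -0.05 in vector cells and from -0.40 to 0.36 in eIF4E cells.

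The 4 kinases of eIF2alpha did not move together. EIF2AK1 (chr7:6022247-6059175) had 557, 658 and 368 CPM in vector input and 1474, 2136 and 747 in vector Cap IP. In eIF4E cells it had 447, 418 and 615 CPM in input and 1921, 1988 and 1317 in Cap IP. Every Cap IP library lay above every input library, with the vector Cap IP replicate 3 far below its 2 partners. The log2 change was 1.46 ± 0.35 in vector cells (edgeR adjusted p = 0.00296) and 1.82 ± 0.36 in eIF4E cells (edgeR adjusted p = 0.000418), and it was called without any 1 library. AIMP2, a scaffold gene of the tRNA synthetase complex, shares 532 bases of exon on the opposite strand and held 159 counts on average against 1343. It stood at 0.21 in vector cells and rose by 1.00 in eIF4E cells (edgeR adjusted p = 0.00761).

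EIF2AK2 (chr2:37099210-37157522), which encodes PKR, held few counts. It had 10.3, 7.48 and 14.3 CPM in vector input (16, 14 and 34 counts) and 3.89, 6.31 and 1.92 in vector Cap IP (4, 6 and 3 counts), without overlap. The log2 change was -1.49 ± 0.55 (edgeR adjusted p = 0.0368), and the adjusted p was 0.0582 and 0.143 without vector input replicates 1 and 3 and 0.0808 and 0.165 without vector Cap IP replicates 1 and 3. In eIF4E cells its groups overlapped, with 9.88, 7.82 and 4.15 CPM in input and 15.4, 8.69 and 6.94 in Cap IP (0.48 ± 0.50, edgeR adjusted p = 0.449). GPATCH11, opposite to it over 35 bases, held 12.9 counts on average against 13.1 and fell in vector Cap IP, where its log2 change was -1.91 (edgeR adjusted p = 0.0163). ARL14EPP1, opposite to EIF2AK2 over 401 bases, was not matched to a row. EIF2AK3 (PERK), the kinase of the endoplasmic reticulum, had 7.11, 11.2 and 11.0 CPM in vector input and 6.81, 5.25 and 8.94 in vector Cap IP, and EIF2AK4 (GCN2), the amino acid sensor, had 26.5, 27.8 and 39.2 against 21.4, 28.4 and 26.8. In eIF4E cells EIF2AK3 had 8.30, 9.78 and 3.63 CPM in input and 7.18, 1.93 and 5.95 in Cap IP, and EIF2AK4 had 41.5, 44.5 and 19.2 against 27.7, 17.4 and 21.8. Neither was called, and their changes were -0.46 and -0.29 in vector cells, with -0.54 and -0.66 in eIF4E cells.

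Of the 5 subunits of eIF2B, EIF2B2 and EIF2B5 were lower and EIF2B1 higher in eIF4E Cap IP, and none was called in vector cells. EIF2B2 (chr14:75002921-75012366), a regulatory subunit with 1283 bases of exon opposite to genes without a symbol that were not matched to a row, had 25.3, 28.3 and 32.2 CPM in eIF4E input and 9.24, 12.6 and 14.9 in eIF4E Cap IP, a change of -1.22 ± 0.34 (edgeR adjusted p = 0.00634) that was called without any 1 library. In vector cells its Cap IP libraries, at 20.0 to 24.3 CPM, also lay below its input libraries, at 24.6 to 39.6, by -0.42 ± 0.31. EIF2B5 (chr3:184135038-184146127), the catalytic subunit, opposite to EIF2B5-DT over 68 bases, had 26.9, 36.7 and 44.1 CPM in eIF4E input and 15.4, 19.3 and 15.9 in eIF4E Cap IP (-1.08 ± 0.37, edgeR adjusted p = 0.0210). Its adjusted p was between 0.0509 and 0.0700 without eIF4E input replicate 2 or 3 or Cap IP replicate 1 or 3.

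EIF2B1 (chr12:123620406-123633766), the regulatory alpha subunit, was a call at the edge of the threshold. It had 49.8, 66.0 and 47.8 CPM in eIF4E input and 107, 125 and 59.5 in eIF4E Cap IP, so the groups overlapped (0.83 ± 0.33, edgeR adjusted p = 0.0483). The adjusted p was between 0.0525 and 0.237 without any 1 library other than eIF4E Cap IP replicate 3. In vector cells it stood at -0.03, with vector Cap IP from 30.6 to 79.9 CPM. DDX55, a helicase gene opposite to it, held 11.2 counts on average against 97.2 and was not called, and GTF2H3, also opposite, held 2.5. EIF2B3 and EIF2B4, the other 2 subunits, were not called and changed by between -0.19 and 1.18.

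Of the factors that select the start codon, EIF1AX was called higher in eIF4E Cap IP. EIF1AX (chrX:20124525-20141838) had no exons opposite to another gene and encodes eIF1A. EIF1AX had 11.1, 4.89 and 6.23 CPM in eIF4E input (28, 10 and 12 counts) and 10.3, 18.3 and 27.8 in eIF4E Cap IP (10, 19 and 28 counts), so that the groups overlapped (1.32 ± 0.44, edgeR adjusted p = 0.0194). In vector cells it had 4.53, 5.88 and 3.79 CPM in input and 9.72, 7.36 and 10.9 in Cap IP, without overlap, but the change of 0.99 ± 0.49 did not pass (edgeR adjusted p = 0.114). The adjusted p in eIF4E cells was 0.0808 and 0.0525 without eIF4E input replicates 2 and 3 and 0.166 without eIF4E Cap IP replicate 3. EIF1AD, which resembles eIF1A, had 11.5, 11.7 and 14.02 CPM in eIF4E input and 7.18, 7.73 and 5.95 in eIF4E Cap IP, without overlap, and did not pass (-0.82 ± 0.42, edgeR adjusted p = 0.114). EIF5, the activator of GTP hydrolysis by eIF2, changed by -0.46 and -0.03.

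The paralogs EIF1 and EIF1B were far apart in level. EIF1, the scanning factor, had 62.7, 59.3 and 36.7 CPM in vector input, 63.6, 70.9 and 83.1 in eIF4E input, 77.8, 54.7 and 71.5 in vector Cap IP and 68.7, 60.8 and 62.5 in eIF4E Cap IP. EIF1B had 41 counts over all 12 libraries, with 1.60 to 1.94 CPM in vector input, 1.47 to 2.37 in eIF4E input, 1.92 to 7.78 in vector Cap IP and 0.992 to 2.05 in eIF4E Cap IP, so most of its values lie at or near the worth of 3 counts. Per kb of transcript the vector input means were 22.6 CPM for EIF1 and 1.77 for EIF1B. EIF1 changed from input to Cap IP by 0.37 ± 0.28 in vector cells and -0.18 ± 0.28 in eIF4E cells, and its groups overlapped in both.

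EIF5B (chr2:99337371-99401326), the GTPase that joins the ribosomal subunits, was higher in eIF4E Cap IP. It had 96.5, 69.4 and 16.1 CPM in eIF4E input and 232, 147 and 164 in eIF4E Cap IP, without overlap (1.57 ± 0.42, edgeR adjusted p = 0.00512), and was called without any 1 library. Without eIF4E input replicate 3, the low one, the change was 1.12 and still passed. In vector cells it had 87.9, 48.1 and 57.3 CPM in input and 140.0, 110.4 and 98.3 in Cap IP, also without overlap, and did not pass without the replicate block given above (0.85 ± 0.42, edgeR adjusted p = 0.112). REV1, a DNA polymerase gene opposite over 852 bases of exon, held 42.3 counts on average against 144 and stood at -0.76 and -0.14. EIF6, which keeps the large subunit from joining early, had overlapping groups and changed by 0.36 and -0.44.

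EIF2A and EIF2D, which can deliver initiator tRNA without eIF2, moved in opposite directions in eIF4E Cap IP. EIF2A (chr3:150546678-150586016) had 6.72, 3.42 and 3.12 CPM in eIF4E input (17, 7 and 6 counts) and 12.3, 11.6 and 11.9 in eIF4E Cap IP (12 counts in each), without overlap (1.39 ± 0.50, edgeR adjusted p = 0.0275). EIF2D (chr1:206571292-206612465), with no exons opposite to another gene, had 23.7, 23.9 and 29.1 CPM in eIF4E input and 3.08, 9.66 and 14.9 in eIF4E Cap IP, a change of -1.46 ± 0.42 (edgeR adjusted p = 0.00831). In vector cells both genes' groups overlapped, with changes of 0.42 and -0.08. The adjusted p of EIF2A was between 0.0636 and 0.0858 without any 1 library other than eIF4E input replicate 1, and that of EIF2D was 0.0506 without eIF4E Cap IP replicate 1. SERP1, an endoplasmic reticulum gene opposite to EIF2A, held 116 counts on average against 12.2 and rose in both kinds of cell, by 1.60 (edgeR adjusted p = 0.000104) and 1.57 (edgeR adjusted p = 7.56e-05).

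The hypusine factors EIF5A and EIF5A2, which help the ribosome through difficult peptide bonds and at termination, were not called. EIF5A had 141, 249 and 117 CPM in vector input, 175, 247 and 300 in eIF4E input, 136, 254 and 169 in vector Cap IP and 135, 223 and 178 in eIF4E Cap IP. Replicate 2 was the highest of 3 libraries in every group but eIF4E input, and the groups overlapped throughout. The change from input to Cap IP was 0.14 ± 0.33 in vector cells and -0.43 ± 0.33 in eIF4E cells, and in vector cells it was -0.15 without vector Cap IP replicate 2. EIF5A2 had 19 counts in all, with 0 to 4 in a library, and per kb its vector input mean was 0.17 CPM against 134 for EIF5A.

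**Figure D3:**
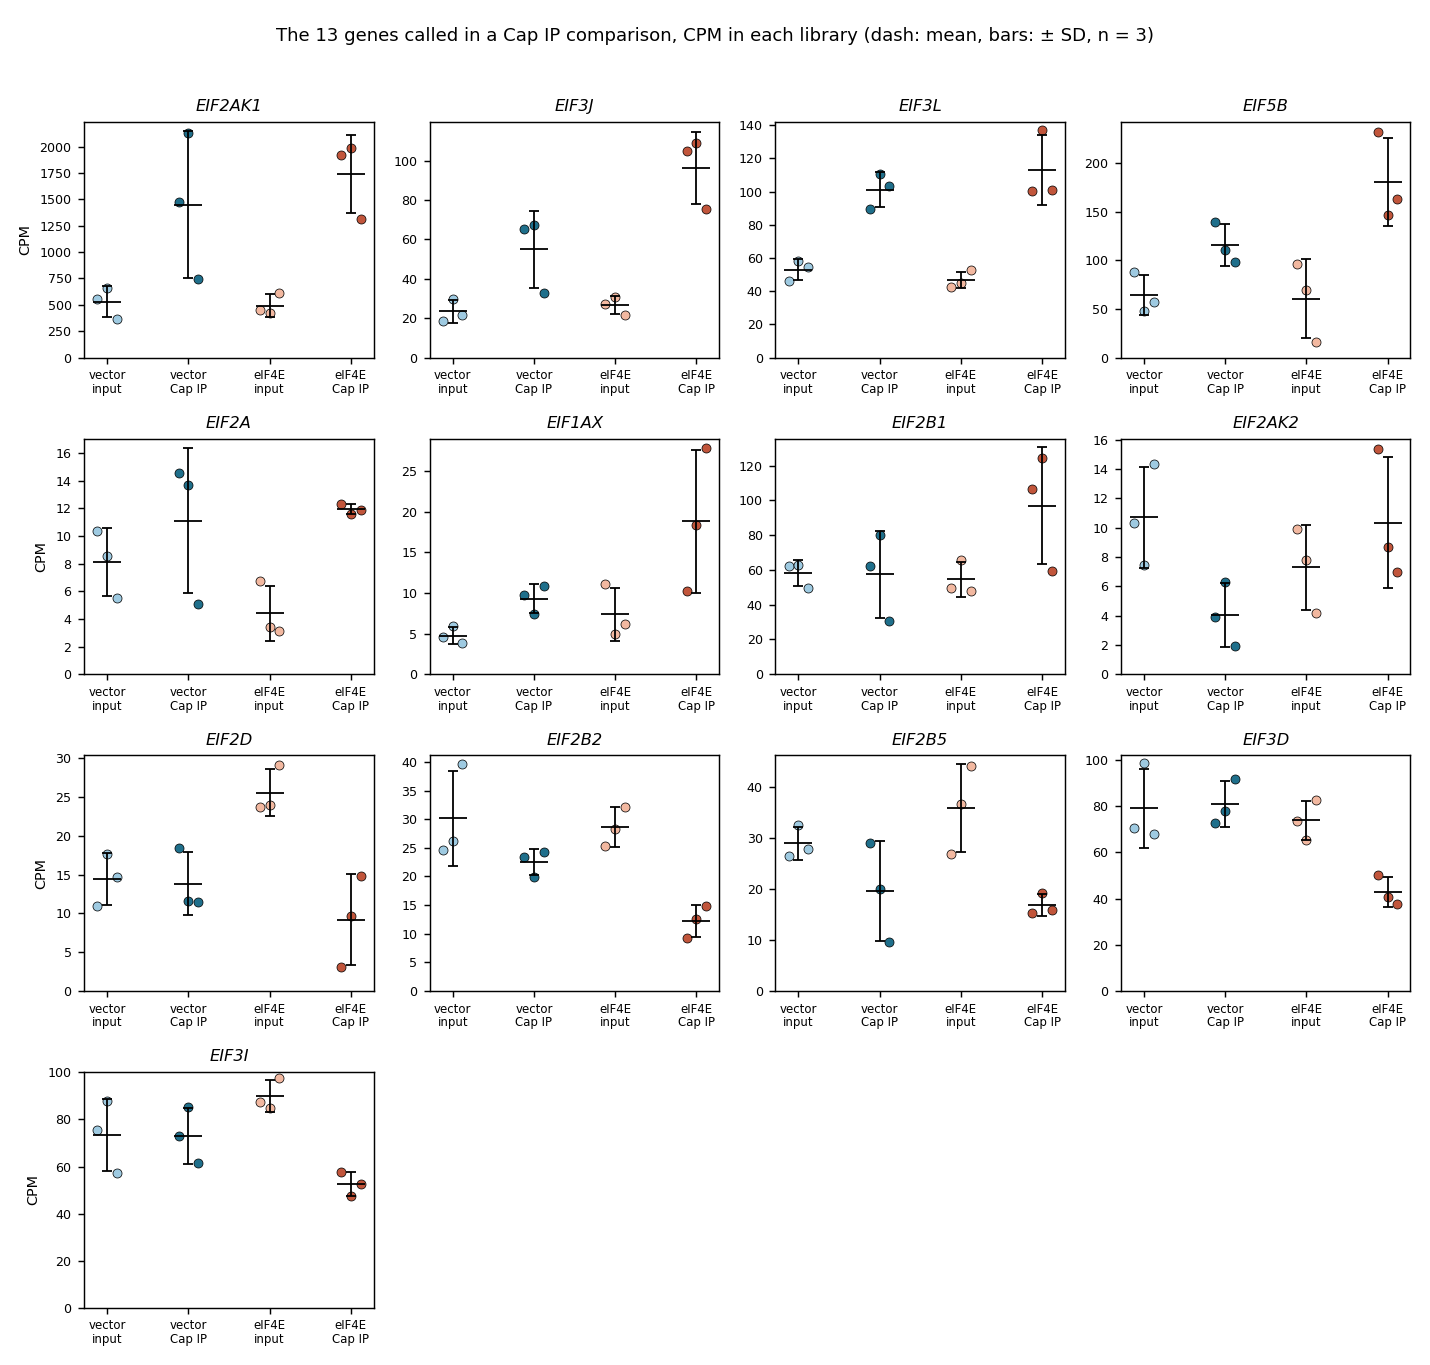
CPM in each of the 12 libraries (points), with the mean and SD of each group of 3, for the 13 members called in a comparison of Cap IP with input, each on its own linear axis from 0. EIF2AK1, EIF3J and EIF3L rise in both kinds of cell, EIF2AK2 has its lowest points in vector Cap IP, and EIF3D, EIF3I and EIF2B2 have their lowest points in eIF4E Cap IP.

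The comparison of eIF4E with vector cells asked whether eIF4E-Flag went with other levels of these factors. In input no member was called by edgeR or DESeq2, against 0.53% of all genes by edgeR (0.104% higher and 0.425% lower). At an unadjusted edgeR p under 0.05 there was 1 member, against 1683 of all 12460 genes. The members' median log2 difference was 0.18 against -0.05 over all genes, with 19 of 34 above 0 (46.6% of all genes), and it was 0.00 without eIF4E input replicate 2. In 4 members all eIF4E input libraries lay above all vector input libraries (EIF3G, EIF1, EIF1AD and EIF2D) and in 0 below, against 8.45% and 10.2% of all genes. The smallest p belonged to EIF2D, which had 11.0, 17.6 and 14.8 CPM in vector input and 23.7, 23.9 and 29.1 in eIF4E input (0.81 ± 0.38, edgeR adjusted p = 0.348). Next were EIF1AD, at 7.76, 8.55 and 6.75 against 11.5, 11.7 and 14.02 CPM (0.69 ± 0.38, edgeR adjusted p = 0.439), and EIF3B, at 193, 309 and 173 against 275, 312 and 386 (0.53 ± 0.30, edgeR adjusted p = 0.453). The groups of EIF3B overlapped.

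In the Cap IP fraction no member differed between eIF4E and vector cells by edgeR or DESeq2, against 0.225% of all genes by edgeR (0.0803% higher and 0.144% lower). Of the 34 tested members 6 had an unadjusted edgeR p under 0.05, against 1146 of all 12460 genes. The members' median was -0.04 against -0.01. The 3 eIF4E libraries lay above the 3 vector libraries in EIF3J, EIF2AK2 and EIF5B and below them in EIF3D, EIF3I and EIF2B2, against 6.16% and 7.39% of all genes. EIF3D had the smallest p, with 72.9, 77.8 and 91.9 CPM in vector Cap IP and 50.3, 40.6 and 37.7 in eIF4E Cap IP (-0.92 ± 0.27, edgeR adjusted p = 0.249). EIF3J followed at 0.82 ± 0.31 (edgeR adjusted p = 0.421) and EIF2B2 at -0.88 ± 0.35 (edgeR adjusted p = 0.449), with the values per library given above.

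The difference of the Cap IP change between eIF4E and vector cells was tested as an interaction, and no member passed by edgeR or DESeq2, nor did any of the 12460 genes by edgeR (0.0%). At an unadjusted p under 0.05 there were 3 members, EIF2AK2 at 1.97 ± 0.74, EIF2D at -1.38 ± 0.59 and EIF3D at -0.82 ± 0.38 (edgeR adjusted p = 0.833 for each), and 728 genes in all. So members called in eIF4E cells alone, EIF3D among them, were not shown to differ from vector cells in their change. On simulated data with 12460 genes, edgeR called 39% of the 4-fold and 0% of the 2-fold interactions. The shares for Cap IP against input were 71% and 16% with vector libraries, and 75% and 11% with eIF4E libraries. For eIF4E against vector, 71% and 10% were called among input libraries, and 58% and 5% among Cap IP libraries. Each simulation changed 200 genes and kept all others equal between groups. In the data 39.5% of genes were called for Cap IP against input in vector cells and 45.1% in eIF4E cells. The adjustment of p depends on that share, so the simulated shares need not hold for those 2 comparisons.

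**Figure D4:**
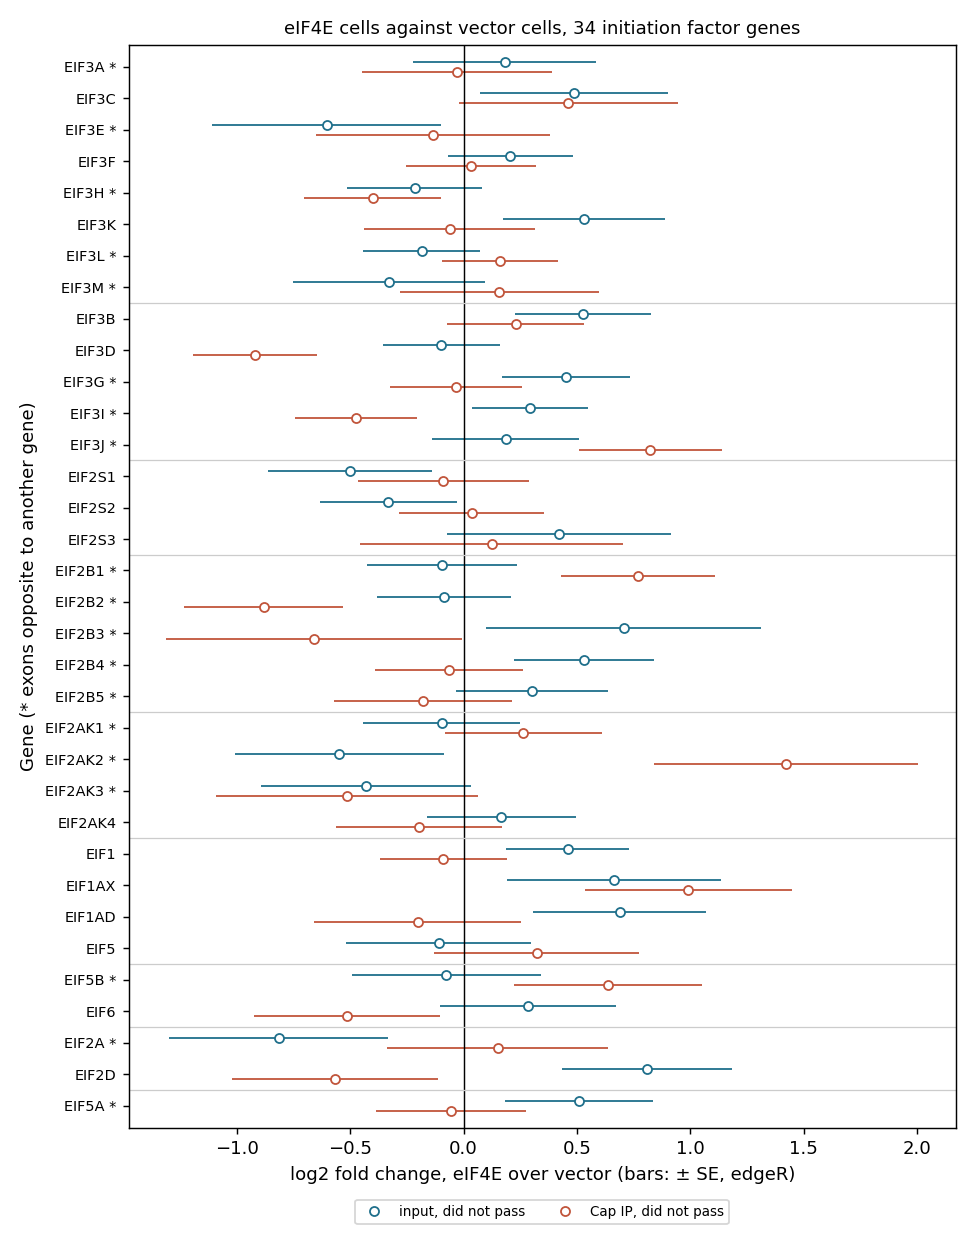
Log2 fold change of eIF4E over vector cells (x axis, ± SE from edgeR) in input and in Cap IP for the 34 tested members, grouped by role. All points are open because none passed. In Cap IP, EIF2AK2 at 1.42 and EIF1AX at 0.99 lie farthest above 0, and EIF3D at -0.92 lies farthest below it.

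Calls in Cap IP lay mostly among members with exons opposite to another gene. Of those 19, 3 were higher and 1 lower in vector cells, and 6 were higher and 3 lower in eIF4E cells. Of the 15 tested members without such exons, 0 were called by edgeR in vector cells. There 0 had an unadjusted edgeR p under 0.05, against 5988 of all 12460 genes. In eIF4E cells 1 was higher (EIF1AX, beside the antisense-named row EIF1AX-AS1) and 2 were lower (EIF3D and EIF2D). Over all genes with opposite exons, 19.3% were higher and 19.7% lower in vector cells, with 23.7% and 21.9% in eIF4E cells. Over all genes without them the shares were 8.40% higher and 22.7% lower in vector cells, with 6.97% and 29.3% in eIF4E cells. When only the genes without opposite exons were fitted, a choice made after seeing the data, 15 members were left. No member called in vector cells was among them, so the 0 calls there do not bear on those members. In eIF4E cells EIF1AX alone was called (1.71, edgeR adjusted p = 0.00481), against 13.5% of the fitted genes higher and 16.4% lower. EIF3D stood at -0.38 and EIF2D at -1.07 (edgeR adjusted p = 0.05001). Scaling was redone on the fitted genes, whose median in eIF4E cells was -0.04. Genes without opposite exons had a median of -0.52 in the main fit.

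Some of the rows opposite to members held more counts than the member. There were 16 such rows for 14 members, and 4 exceeded theirs. CCDC73, a coiled-coil gene that shares 300 bases of exon with EIF3M, held 1244 counts on average against 28.2, and it rose in Cap IP by 2.48 in vector cells (edgeR adjusted p = 0.000117) and 3.82 in eIF4E cells (edgeR adjusted p = 2.58e-06). EIF3M itself had 21.3, 23.5 and 9.70 CPM in vector input and 15.6, 34.7 and 15.3 in vector Cap IP, and was not called. P2RY11, a nucleotide receptor gene opposite to EIF3G, held 423 counts against 116 and rose by 1.66 and 1.86 (edgeR adjusted p = 0.000124 and 2.97e-05), while EIF3G stood at 0.40 and -0.09. UTP23, a ribosome assembly gene opposite to EIF3H, held 323 against 104 and rose by 1.39 in eIF4E cells (edgeR adjusted p = 0.00651). Which of each pair was transcribed cannot be told apart from these counts.

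**Figure D5:**
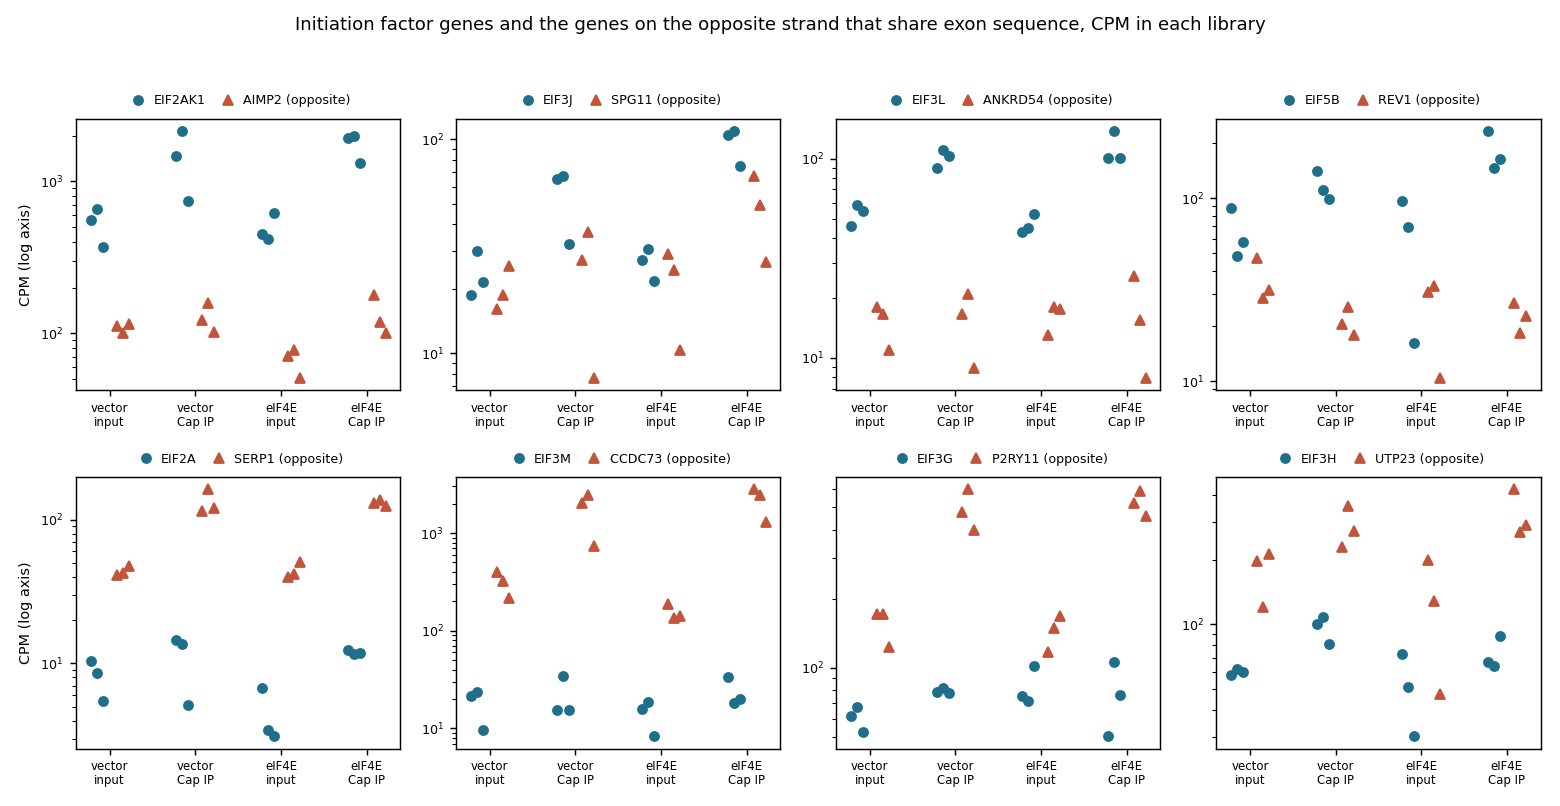
CPM in each library (log axis, range set per panel) for 8 members (circles) and the gene on the opposite strand that shares exon sequence with each (triangles), in the 4 groups of 3 libraries. AIMP2, ANKRD54 and REV1 lie below EIF2AK1, EIF3L and, in Cap IP, EIF5B, while SERP1, CCDC73, P2RY11 and most UTP23 values lie above their members and higher in Cap IP than in input.

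Near-identical copies could draw reads from members. The file held 39 rows named as pseudogenes, copies or antisense RNAs of members, of which 17 had no counts, 18 had from 1 to 30 and 2 were tested. EIF3EP1, a pseudogene of EIF3E, had 22.0, 17.1 and 15.6 CPM in vector input and 38.9, 42.0 and 35.1 in vector Cap IP, and it was called higher in both kinds of cell (1.09 ± 0.31, edgeR adjusted p = 0.00879, and 1.47 ± 0.32, edgeR adjusted p = 0.000954). EIF3E had 11.6, 20.3 and 11.0 CPM and 32.1, 24.2 and 8.94 in those vector groups. Whether reads of EIF3E and EIF3EP1 were split or dropped between the rows was not tested. EIF3FP1, a pseudogene of EIF3F, had 43.96, 46.5 and 97.8 CPM in vector input and 7.78, 4.204 and 9.58 in vector Cap IP (-3.07 ± 0.50, edgeR adjusted p = 0.000111), and in eIF4E cells it changed by -2.29 ± 0.51 (edgeR adjusted p = 0.00132). EIF3F had 57.5, 73.2 and 56.1 CPM against 54.4, 63.1 and 76.6 in the vector groups, so the pair moved differently. EIF3CL, a near copy of EIF3C, is listed at 0 in every library.

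Other genes of the translation machinery were taken from 3 lists, to be read against 18.5% of all genes higher and 21.0% lower in vector Cap IP and 21.9% and 23.3% in eIF4E Cap IP. Of 16 tested partners and regulators of initiation, 3 were higher and 2 lower in vector Cap IP, and 3 higher and 3 lower in eIF4E Cap IP. GCN1, the activator of GCN2, fell in vector cells from 93.4 ± 12.5 CPM in input to 8.50 ± 3.13 in Cap IP (-3.40 ± 0.33, edgeR adjusted p = 9.02e-07) and from 168 ± 29.7 to 5.61 ± 1.43 in eIF4E cells (-4.88 ± 0.36, edgeR adjusted p = 2.22e-08). ABCE1, which recycles ribosomes and has exons opposite to another gene, rose from 11.6 ± 1.21 to 42.1 ± 3.58 CPM and from 14.6 ± 3.22 to 63.4 ± 16.6 (1.86 and 2.10). CDC123, the assembly factor of eIF2, has 224 bases of exon opposite to another gene. It rose from 21.5 ± 2.64 to 41.9 ± 5.82 CPM in vector cells and from 18.5 ± 3.79 to 49.98 ± 3.69 in eIF4E cells (0.96 and 1.44). Of 13 tested elongation and termination factors, 0 were higher and 1 lower in vector Cap IP, and 0 higher and 2 lower in eIF4E Cap IP. EEF2, the translocase, fell by 0.92 and 1.53 on the log2 scale. Its kinase EEF2K, with 714 bases of exon opposite to another gene, fell by 1.94 in eIF4E cells. Of 13 tested targets of the integrated stress response, the program set off by the eIF2alpha kinases, NUPR1 rose by 1.31, CEBPB rose by 0.95 and VLDLR fell by 1.54 in vector Cap IP, and none was called in eIF4E Cap IP. In input, in the Cap IP fraction between eIF4E and vector cells and for the difference, 0 genes of the 3 lists were called by edgeR. At an unadjusted edgeR p under 0.05 there were 3, 1 and 1, against 1683, 1146 and 728 of all 12460 genes.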

How the data were processed

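The deposited values were raw counts of reads per gene name in 12 libraries, with no normalization. The submitters' processing notes name STAR 2.5.1b, featureCounts 1.4.5-p1, DESeq2 and the build GRCh38.p5, with no role or order. Per the labels' protocols, libraries were made with a ribosomal RNA depletion kit that marks strand and read as single ends of 75 cycles. No source used here gives the annotation or the strand setting of the counting. A count on the wrong strand, if the setting did not match the kit, would give a gene's reads to its opposite partner.

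Here edgeR 4.0.16 was run in R 4.3.3 on these counts (filterByExpr with a minimum count of 10, TMM scaling, quasi-likelihood test with 4 group means over 12 libraries, Benjamini-Hochberg adjustment over 12460 genes, 5 comparisons). The common dispersion was 0.0883. Depth was 1206321 to 1813486 counts, TMM factors were 1.17 to 1.49 in input and 0.667 to 0.891 in Cap IP, and tested members had from 131 to 16114 counts over the 12 libraries (median 656 over all members). No pair of replicates was a copy of 1 library, since chi-square per degree of freedom lay between 5.10 and 18.0. Simulated data in which 200 genes were changed by 2-fold or 4-fold were used to test these fits, and 1 to 4 false calls were made in each comparison.

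Members were given by name. Values per library were to be given for members called without overlap of the groups, for the 3 smallest p where fewer than 3 passed, for EIF1 and EIF1B, EIF5A and EIF5A2 and the eIF2alpha kinases, and up to 3 genes with the smallest p could be named in each list. EIF1AX and EIF2B1, called with overlapping groups, and other members were given besides, after their values were seen. Members, lists, comparisons and alternatives were chosen with earlier results of these data known.

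Positions and exon overlaps came from GENCODE release 44 and start sites from RefSeq (GRCh38.p14), read in Python 3.11.15 with pandas 2.3.3. Of the 12460 genes tested 2805 could not be matched by name to the annotation, and 4952 of the 9655 matched had exons opposite to another gene. Figures used matplotlib 3.10.9.

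Each input library shares a title stem with 1 Cap IP library, and each vector library a title tag with 1 eIF4E library; the labels explain neither. Correlations of deviations from the group means were 0.43, 0.27 and 0.44 for the stems of vector libraries. The stems of eIF4E libraries gave 0.35, 0.08 and 0.11. Tags gave 0.18, 0.01 and -0.04 among input libraries, and among Cap IP libraries 0.20, 0.16 and 0.30. Stems were therefore taken to pair vector libraries and tags to pair Cap IP libraries. The main calls still came from group means without a block, and blocks were run as alternatives only. The stem block was also run for eIF4E cells and the difference, and the tag block for input, where no pairing was taken. Alternatives were other scalings, filters and tests (DESeq2 1.42.0), these blocks, only the groups compared, and each library left out in turn.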

Additional observations from a re-analysis of the deposited data

Results flagged for a closer look

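EIF2AK2 was singled out because its change from input to Cap IP differed between the 2 kinds of cell, with the largest fitted difference among the 34 tested members. Its changes had opposite signs, as did those of other members, EIF2B3 (1.18 and -0.19), EIF1 and EIF6 among them. On a scale of log2 CPM with a pseudocount of 2 CPM, libraries of EIF2AK2 that share a title stem gave -1.07, -0.19 and -2.06 for vector cells. The eIF4E cells gave 0.55, 0.12 and 0.54. The fitted difference of EIF2AK2 was 1.97 ± 0.74 (log2), and the test of the difference did not pass over all genes (edgeR adjusted p = 0.833). The counts behind it were 3 to 34 in each vector library and 7 to 25 in each eIF4E library. EIF2AK2 overlaps GPATCH11 and ARL14EPP1 on the opposite strand, and the part of strand and of low counts in this value was not tested.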

How the results depend on the processing

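No member was called for eIF4E against vector in input or in Cap IP, or for the difference, under any alternative that was run. For Cap IP against input in vector cells, where 3 members were higher and 1 lower, counts higher and lower were 0 and 9 with total counts as library sizes, 7 and 0 with mitochondrial mRNAs, and 0 and 0 among genes without opposite exons, a choice made after seeing the data. No member was lower with a filter of 50 counts in 3 libraries, which left 23 members tested, against 28.1% of all genes. When 1 library was left out, members lower ranged from 0 to 1, against 16.1% to 19.2% of all genes. With the stem as replicate block 5 were higher, against 23.3% of all genes. In eIF4E cells, where 7 were higher and 5 lower, counts were 2 and 19 with total counts and 0 and 0 with mitochondrial mRNAs. Among the 15 members in the rescaled fit of genes without opposite exons they were 1 and 0, against 13.5% and 16.4% of the genes fitted. There were 4 higher without a filter and 4 with the filter of 50 counts, against 7.31% and 30.1% of all genes fitted. Leaving out 1 library gave 4 to 8 higher and 2 to 5 lower. Of all genes 17.0% to 19.9% were then higher and 17.0% to 20.3% lower. With the stem as replicate block, though it was not taken to pair eIF4E libraries, 8 were higher, EIF3E (1.199, edgeR adjusted p = 0.00897) added, and 5 lower. The shares of all genes were 26.1% and 27.6%. Over all genes that block raised the calls for the difference from 0 to 51, and the tag as block those in Cap IP from 28 to 57 higher and 57 lower, without adding a member. The replicate block changed no other call of a member. DESeq2 called 6 members higher in eIF4E cells, without EIF2B1 (DESeq2 adjusted p = 0.0604), against 21.4% of all genes. With total counts 14 of 34 members turned direction in vector cells and 6 in eIF4E cells, and with mitochondrial mRNAs 13 and 5, as the median of all genes moved. Of the values followed under every alternative, 10 with no call and 1 called turned. In vector cells EIF1 was -0.36 and EIF5A -0.63 with total counts, EIF5A -0.15 and -0.07 without vector Cap IP replicate 2 or vector input replicate 3 (-0.15 to 0.54 over the 6 libraries left out), and EIF2AK3 0.26 and EIF2AK4 0.90 with mitochondrial mRNAs. In eIF4E cells EIF2AK2 was -0.42 with total counts, and EIF1 0.021 with mitochondrial mRNAs and 0.22 among genes without opposite exons. EIF3J in Cap IP between eIF4E and vector cells was -0.022 with mitochondrial mRNAs, and EIF2B1, called in eIF4E cells, was -0.061 with total counts. Beyond the fewer genes tested by the filters, the cause was not tested. Depth limits the members with few counts, such as EIF2B3 with 131 over the 12 libraries.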

Other observations

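The 8 core subunits of eIF3 summed to 378 ± 38.3 CPM (SD, n = 3) in input of vector cells and 458 ± 22.5 in their Cap IP. In eIF4E cells the sums were 402 ± 70.0 and 449 ± 16.3. The 5 subunits of eIF2B summed to 144 ± 7.05 and 141 ± 32.5 CPM in input and Cap IP of vector cells, and 158 ± 5.41 and 162 ± 34.1 were the sums in eIF4E cells. The 3 subunits of eIF2 summed to 120 ± 18.3, 110 ± 33.6, 94.2 ± 38.0 and 107 ± 10.48 CPM in vector input, vector Cap IP, eIF4E input and eIF4E Cap IP. The 4 kinases of eIF2alpha, dominated by EIF2AK1, summed to 580 ± 137 CPM in input and 1489 ± 696 in Cap IP of vector cells. In eIF4E cells their sums were 543 ± 86.5 and 1779 ± 371. These sums are descriptions and were given no test.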
